A study of Mus musculus with 6 samples.

Results

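The genes described here are 10 markers of dendritic cell subsets, followed in RNA from mouse spleen: Xcr1, Clec9a, Batf3, Zbtb46, Itgax, Clec4a4, Cd209a, Siglech, Ccr9 and Bst2. They were chosen by symbol as markers of conventional and plasmacytoid dendritic cells, each symbol matched 1 Ensembl identifier, and together they are 10 of the 31771 genes counted. The animals were C57BL/6 mice: 3 mutants labelled VEC-Cre, SB Transposase and onc2, and 3 WT controls. In the mutants, Cre driven by the VE-cadherin promoter releases a Sleeping Beauty transposase that moves the onc2 transposon, so each animal can carry its own set of insertions. Cre under this promoter acts in endothelium and in blood cells that descend from embryonic endothelium. The controls carry none of the 3 alleles by their label, and the labels give no age.

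Dendritic cells take up antigen and show it to T cells. The conventional type 1 cells (cDC1) cross-present antigen to CD8 T cells and need the transcription factors Batf3 and Irf8, the type 2 cells (cDC2) of the spleen present to CD4 T cells and depend on Irf4, Notch2 and lymphotoxin signals, and plasmacytoid dendritic cells (pDC) make type I interferon under the E protein Tcf4. All of them need the growth factor Flt3 ligand. Several of the 10 markers are not limited to dendritic cells: Itgax is also found on macrophages and natural killer cells, Zbtb46 in endothelium and erythroid precursors, Ccr9 on some T cells, and Bst2 on plasma cells and on many cells exposed to interferon. In RNA from a whole piece of spleen, fewer cells of a type and less RNA per cell cannot be told apart.

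Libraries held 72902118 to 79258116 counts, so that 3 counts corresponded to 0.0379 to 0.0412 CPM (a gene's counts per 1000000 counts of its library). Xist was at 1510 and 580 CPM in mutants 1 and 2 and at 0.423 to 0.663 CPM in mutant 3 and the controls, and Ddx3y showed the reverse, so mutants 1 and 2 differed from all controls in sex as well as in genotype. Sex and genotype cannot be told apart in those 2 animals, and mutant 3 alone matched the controls. Mutant 2 stood apart from the other mutants: monocyte and macrophage markers summed to 7888 CPM there, against 288.8 and 734.3 CPM in mutants 1 and 3 and 1366 to 1880 CPM in controls. Results are therefore given per animal, and the calls are repeated without mutant 2 and for mutant 3 alone. The labels do not state whether the mice shared litters or were processed together.

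The upstream sequences of 4 members are shown because their transcripts behaved differently. Clec9a and Ccr9 were low in every mutant, Siglech, a pDC gene like Ccr9, was at the control level in mutant 2, and Bst2 was at 73.1% of the control mean or more in every mutant. The sequences are the 250 bases before the RefSeq transcription start on GRCm38.p6, written 5′ to 3′ on the gene's strand, and 9 of the 10 members had an entry (not Clec4a4). Capitals mark each match to the E-box CANNTG, the motif of E proteins, and in Bst2 also the interferon response-like motif, a pair of GAAA blocks with 2 bases between them.
Clec9a (chr6:129408612-129408861, plus strand): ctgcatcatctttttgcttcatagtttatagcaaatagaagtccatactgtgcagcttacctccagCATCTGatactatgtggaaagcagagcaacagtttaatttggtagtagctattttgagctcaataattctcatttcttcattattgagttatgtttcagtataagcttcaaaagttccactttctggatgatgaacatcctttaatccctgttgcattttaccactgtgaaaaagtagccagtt
Ccr9 (chr9:123766961-123767210, plus strand): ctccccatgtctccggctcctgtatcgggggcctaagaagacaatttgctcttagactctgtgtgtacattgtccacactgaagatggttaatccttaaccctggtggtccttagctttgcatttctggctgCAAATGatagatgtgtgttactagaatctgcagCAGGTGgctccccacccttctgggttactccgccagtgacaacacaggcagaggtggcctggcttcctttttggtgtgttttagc
Siglech (chr7:55767934-55768183, plus strand): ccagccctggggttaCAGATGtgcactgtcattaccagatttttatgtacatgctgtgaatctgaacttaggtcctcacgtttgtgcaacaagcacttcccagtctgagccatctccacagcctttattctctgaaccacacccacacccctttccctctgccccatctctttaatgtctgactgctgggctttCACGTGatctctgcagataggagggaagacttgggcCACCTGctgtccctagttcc
Bst2 (chr8:71537473-71537722, minus strand): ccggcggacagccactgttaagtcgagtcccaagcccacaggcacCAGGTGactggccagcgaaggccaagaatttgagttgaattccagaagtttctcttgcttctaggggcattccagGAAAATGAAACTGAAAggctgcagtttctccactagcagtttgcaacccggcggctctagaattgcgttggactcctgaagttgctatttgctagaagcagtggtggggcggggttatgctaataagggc
On either strand, an E-box was found in 8 of the 9 member windows and in 66.2% of all 32851 windows of the same length. The interferon response-like motif was found in 1 of the 9, that of Bst2, where 2 overlapping matches form 1 run, and in 2.98% of all windows. The AP-1 motif TGANTCA was found in 2, those of Zbtb46 and Itgax, against 6.75% of all windows. Neither a relative of the interferon response-like motif with GGAA as its first block, which differs from it in 1 base and is found in 2.30% of windows, nor the PU.1-like motif GAGGAAGT, found in 2.44%, occurred in the 9. A match is a run of letters and not evidence of binding.

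Of the 10 members, 2 fell in the mutants by edgeR's quasi-likelihood test (adjusted p under 0.05 over 19573 tested genes): Clec9a, an activating receptor for dead cells on cDC1, and Ccr9, a chemokine receptor of pDC. No member rose. All 10 passed the filter on low counts, and 6.90% of all tested genes were called lower and 5.08% higher. Neither call held when any 1 control was left out, where 0.581% to 0.636% of all tested genes were called lower. Without mutant 2, 9 members were called lower, where 15.3% of all tested genes were. With all 6 libraries, the cDC2 lectin genes Clec4a4 and Cd209a came closest of the other members, at adjusted p = 0.0724 and 0.0726 (edgeR). The median log2 fold change of the members was -1.98, against 0.10 for all tested genes. Against the control mean, the median log2 difference of the 10 genes came to -3.85, -0.58 and -3.11 for mutants 1, 2 and 3, so mutant 2 lay closest to the controls.

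**Figure D1:**
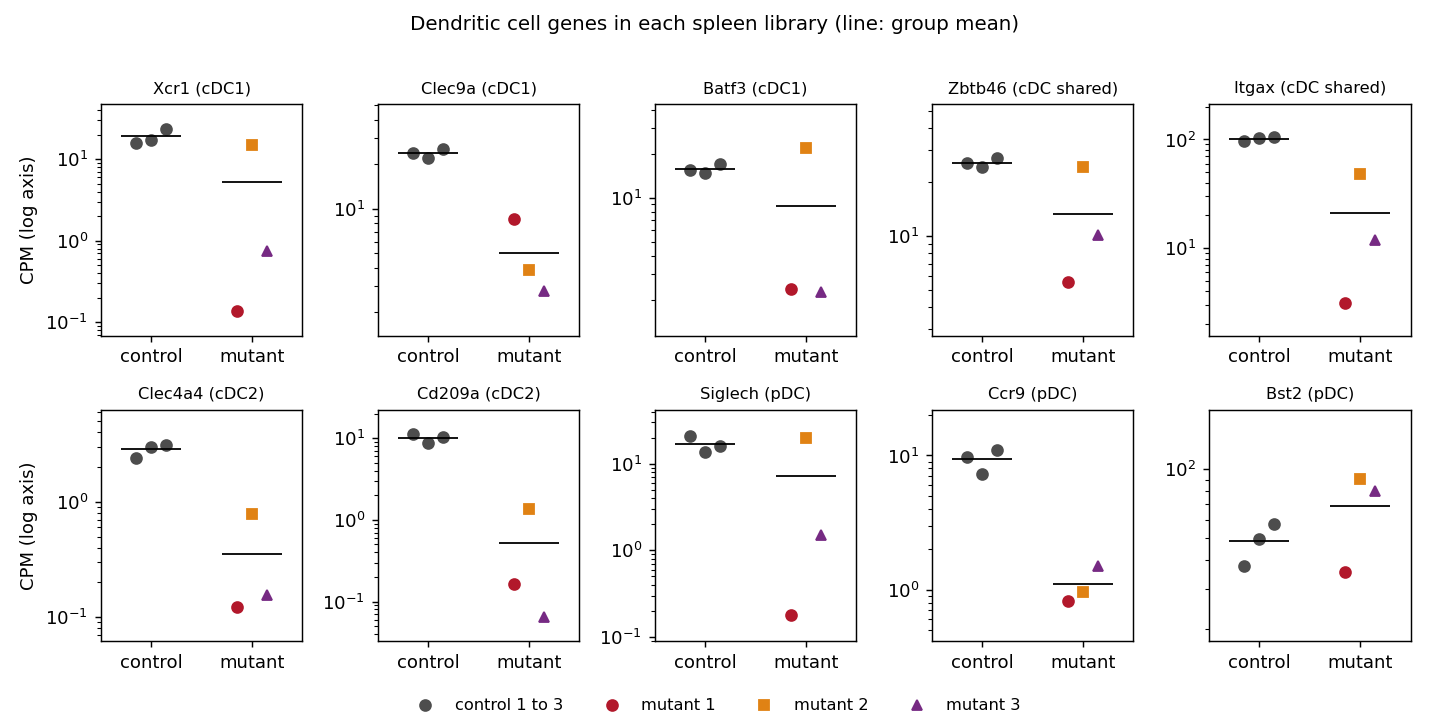
CPM of each of the 10 genes on a log axis, with 1 point per library and a line at the group mean. Mutant 2 lies at or near the control points for Xcr1, Batf3, Zbtb46 and Siglech, and below them with the other mutants for Clec9a, Clec4a4, Cd209a and Ccr9.

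Clec9a, also called DNGR-1, binds actin exposed on dead cells and routes their antigens to cross-presentation (ENSMUSG00000046080, chromosome 6, 129408862 to 129424763, plus strand). It was at 23.7, 22.2 and 25.5 CPM in controls 1, 2 and 3, and at 8.55, 3.86 and 2.77 CPM in mutants 1 to 3. All mutants were below all controls, and mutant 1 was the highest of the mutants. The group means were 23.8 ± 1.67 and 5.06 ± 3.07 CPM (SD, n = 3), a log2 fold change of -2.23 ± 0.46 (SE, adjusted p = 0.0326, edgeR). Without control 1, 2 or 3 the adjusted p was 0.135, 0.132 or 0.142, above the threshold. The annotated exons of Clec9a share 184 bases with those of Clec1b, a platelet receptor gene on the same strand, and Clec1b stood at 21.4 to 33.4 CPM in controls, against 111, 35.0 and 14.9 CPM in mutants 1 to 3. The part of shared reads in the Clec9a level of mutant 1 was not tested.

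Xcr1 encodes the receptor through which cDC1 respond to the chemokine Xcl1 of activated T and natural killer cells (ENSMUSG00000060509, chromosome 9, 123852315 to 123862029, minus strand). Its level was 15.9, 17.4 and 23.6 CPM in the controls, against 0.137, 14.9 and 0.743 CPM in mutants 1 to 3. Thus Xcr1 was low in mutants 1 and 3, with 10 and 57 counts, but was at 78.6% of the control mean in mutant 2. The fitted log2 fold change was -1.75 ± 1.498 (adjusted p = 0.467, edgeR) and did not pass.

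Batf3, the AP-1 family factor that cDC1 need for their development (ENSMUSG00000026630, chromosome 1, 191097847 to 191108945, plus strand), was also low in mutants 1 and 3 only. It was at 14.8 to 16.9 CPM in controls, against 2.39, 21.8 and 2.28 CPM in mutants 1 to 3. Mutant 2 exceeded every control, and mutants 1 and 3 were at 15.1% and 14.5% of the control mean. The log2 fold change was -0.76 ± 0.95 (adjusted p = 0.622, edgeR), and without mutant 2 it was -2.79 (adjusted p = 0.00327).

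Zbtb46 is a transcription factor gene used to tell conventional dendritic cells from monocytes and macrophages (ENSMUSG00000027583, chromosome 2, 181387762 to 181459426, minus strand). In each mutant taken singly it lay closer to its control level than Batf3 did, though its fitted change was not smaller. It was at 25.4, 24.3 and 27.2 CPM in controls, against 5.54, 24.2 and 10.1 CPM in mutants 1 to 3 (log2 -0.90 ± 0.56, adjusted p = 0.319, edgeR). Mutant 2 was thus just under the lowest control, and mutant 3 was the higher of the other two. The endothelial gene Cdh5, at 38.9 to 44.6 CPM in the controls and in mutants 1 and 2, was at 164 CPM in mutant 3. Pecam1, also endothelial, went the other way, at 126 CPM in mutant 3 against 292 to 318 CPM in controls. The erythroid factor gene Gata1 was at 62.6, 196 and 381 CPM in mutants 1 to 3, against 26.0 to 53.8 CPM in controls. The erythroid genes Hbb-bs and Hba-a1 went the other way. Hbb-bs was at 2443, 29734 and 844 CPM in mutants 1 to 3, against 38782 to 61514 CPM in controls. Hba-a1 was at 1698, 11691 and 413 CPM in mutants 1 to 3, against 12329 to 18418 CPM in controls, and neither gene passed the test. The part of endothelial and erythroid cells in the Zbtb46 level was not tested.

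Itgax encodes CD11c, the integrin chain by which dendritic cells are usually gated (ENSMUSG00000030789, chromosome 7, 128129547 to 128150657, plus strand). It stood at 97.5, 103 and 106 CPM in controls, against 3.13, 48.1 and 11.9 CPM in mutants 1 to 3. Every mutant was below every control, from 3.06% to 47.1% of the control mean. The spread among mutants was wide, and the difference did not pass (log2 -2.21 ± 0.94, adjusted p = 0.170, edgeR).

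Both cDC2 lectin genes were low in all mutants, mutant 2 included. Clec4a4, which encodes the inhibitory receptor DCIR2 of splenic cDC2 (ENSMUSG00000059639, chromosome 6, 122990367 to 123024105, plus strand), was at 2.41, 3.02 and 3.14 CPM in controls. In mutants 1, 2 and 3 it was at 0.123, 0.780 and 0.156 CPM, from 9, 58 and 12 counts (log2 -2.95 ± 0.84, adjusted p = 0.0724, edgeR). The groups did not overlap, though the adjusted p missed the threshold.

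Cd209a, a mouse relative of the human pathogen receptor DC-SIGN (ENSMUSG00000031494, chromosome 8, 3743397 to 3748984, minus strand), was at 11.2, 8.66 and 10.4 CPM in controls. It was at 0.165, 1.34 and 0.0651 CPM in mutants 1 to 3, the last from 5 counts. These are 1.63%, 13.3% and 0.646% of the control mean, again without overlap. Its log2 fold change was the lowest estimate of the 10 genes but also uncertain (-4.19 ± 1.19, adjusted p = 0.0726, edgeR).

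Ccr9 binds the chemokine Ccl25 and marks mature pDC (ENSMUSG00000029530, chromosome 9, 123678439 to 123784330, plus strand). Controls were at 9.76, 7.33 and 10.9 CPM and mutants 1, 2 and 3 at 0.823, 0.955 and 1.51 CPM. The mutants lay close together, at 8.81% to 16.2% of the control mean, the least spread among mutants of the 9 members with a negative estimate. The log2 fold change was -3.08 ± 0.40 (adjusted p = 0.0109, edgeR), and without control 1, 2 or 3 the adjusted p was 0.0769, 0.0695 or 0.0773. Ccr9 spans other genes on both strands. Its exons share 1932 bases with AC165425.1 on the opposite strand, which averaged 0.138 CPM over controls and 0.0221 CPM over mutants. They share 269 bases with Gm17200 on the same strand, at 0.208 and 0.702 CPM. With Slc6a20a, on the opposite strand, they share 22 bases, and that gene averaged 5.96 CPM over controls but 42.4 CPM over mutants.

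Siglech, an endocytic Siglec receptor of pDC and some macrophages (ENSMUSG00000051504, chromosome 7, 55768178 to 55778925, plus strand), did not follow Ccr9. It was at 21.0, 13.7 and 16.2 CPM in controls, against 0.178, 19.9 and 1.49 CPM in mutants 1 to 3. Mutant 2 was within the control range, whereas mutants 1 and 3 were at 1.05% and 8.76% of the control mean (log2 -1.15 ± 1.43, adjusted p = 0.622, edgeR).

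Bst2, also called tetherin and the target of the pDC antibody PDCA-1, holds budding virions at the cell surface (ENSMUSG00000046718, chromosome 8, 71534255 to 71537456, minus strand). It was at 37.8, 49.4 and 57.7 CPM in controls, against 35.3, 90.8 and 80.0 CPM in mutants 1 to 3. Mutants 2 and 3 were above all controls and mutant 1 below them (log2 0.53 ± 0.39, adjusted p = 0.394, edgeR), so the groups overlapped. The interferon response list, chosen from textbook knowledge, summed to 364.5 to 439.3 CPM in controls and to 135.6, 1063 and 254.3 CPM in mutants 1 to 3. Of its 9 genes the test called 1 higher, the antiviral enzyme gene Oas1a, from 8.60 ± 1.95 to 35.3 ± 14.1 CPM (log2 2.08 ± 0.38, adjusted p = 0.0245, edgeR), and no gene of that list was at 0 in any mutant. Its part in the Bst2 level was not tested.

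**Figure D2:**
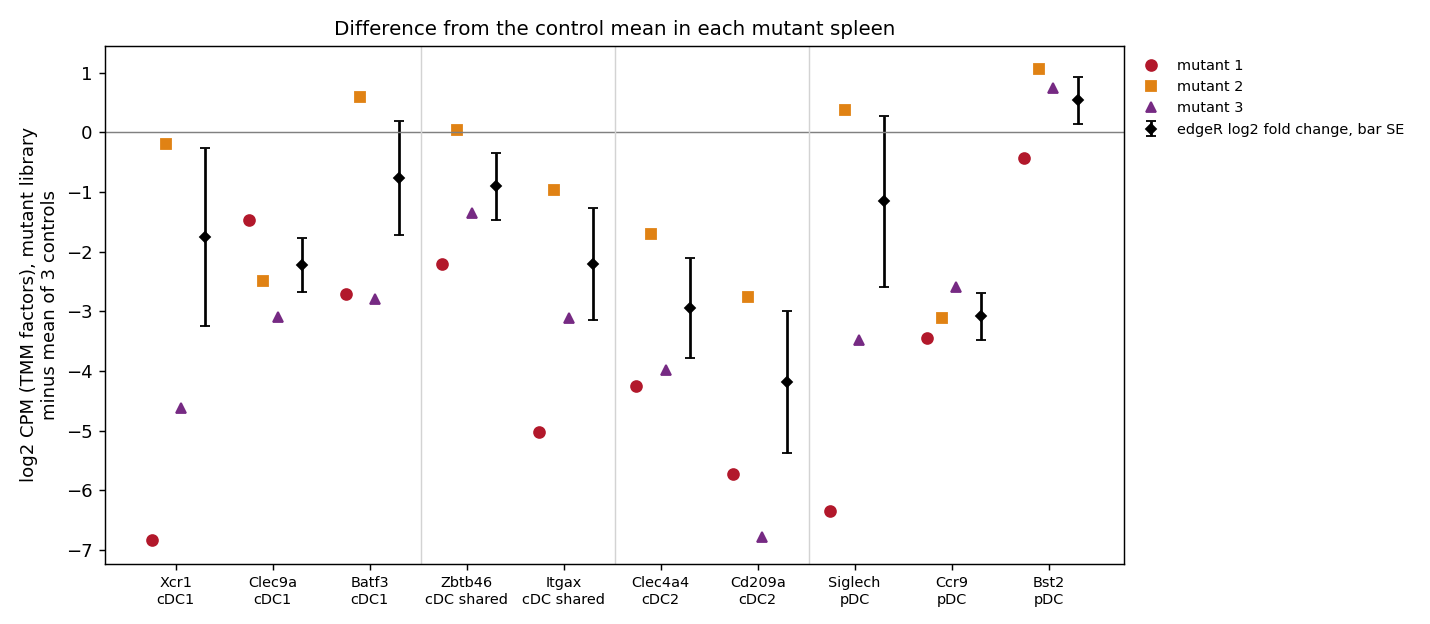
Log2 CPM with TMM scaling factors of each mutant library minus the mean of the 3 controls, by gene and subset, with the edgeR log2 fold change (diamond, bar SE). Mutants 1, 2 and 3 lie within 0.85 of each other for Ccr9 but span 6.63 for Xcr1 and 6.73 for Siglech.

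On the CPM scale 7 of the 10 members had all mutant libraries below all controls, an arrangement found for 22.6% of tested genes. After scaling with TMM factors the number was 5, against 22.1% of genes, because Xcr1 and Zbtb46 in mutant 2 then overlapped the controls. Clec9a, Itgax, Clec4a4, Cd209a and Ccr9 were separated on both scales.

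Ratios between members within a library do not depend on library scaling, and 6 pairs were chosen after the values were seen. The log2 ratio of Xcr1 to Clec9a was -0.35 ± 0.23 in controls (SD, n = 3) and -5.71, 1.94 and -1.86 in mutants 1, 2 and 3. Thus the 2 cDC1 receptor genes parted in opposite directions, toward Clec9a in mutants 1 and 3 and toward Xcr1 in mutant 2. In mutant 1 the Clec9a level may hold reads shared with Clec1b, at 111 CPM there, which was not tested. The same limit holds for the other ratios over Clec9a. The ratio of Batf3 to Clec9a, which was nearly constant in controls at -0.59 ± 0.02, was -1.83, 2.49 and -0.28 in the mutants. Within pDC genes, the log2 ratio of Siglech to Ccr9 was 0.85 ± 0.27 in controls and -2.05, 4.35 and -0.02 in mutants. Mutant 2 again lay above and mutants 1 and 3 below the controls. Siglech over Clec9a gave -0.51 ± 0.29 in controls and -5.39, 2.36 and -0.89 in mutants.

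Among the cDC2 pair, Cd209a over Clec4a4 was 1.81 ± 0.35 in controls and lower in all mutants, at 0.35, 0.77 and -0.99. The ratio of Clec4a4 to Clec9a, a cDC2 gene over a cDC1 gene, was -3.05 ± 0.21 in controls and -5.83, -2.27 and -3.93 in mutants 1, 2 and 3. Of the 6 ratios only Cd209a over Clec4a4 moved to the same side of the controls in all 3 mutants.

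**Figure D3:**
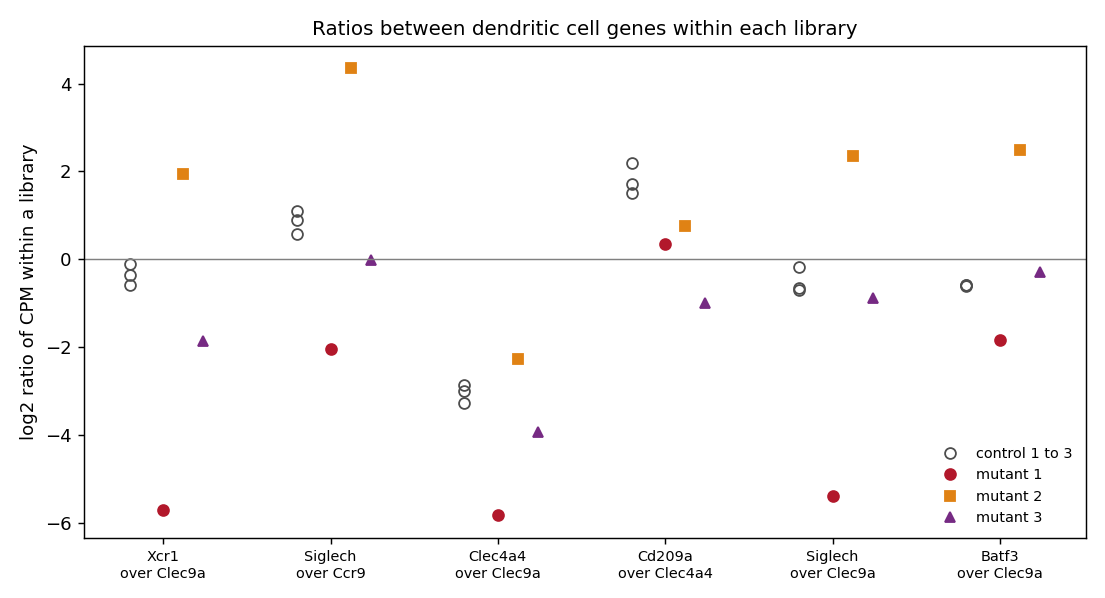
Log2 ratios of CPM between pairs of the genes within each library, controls as open circles and mutants as filled symbols. Mutant 2 lies above the controls in 5 pairs and below them only for Cd209a over Clec4a4. Clec9a or Ccr9, at 16.2% and 10.2% of the control mean in mutant 2, is the denominator of each of those 5.

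Levels of different genes were compared per kilobase of annotated exon, as CPM per kb, in the controls. Bst2 was the most abundant at 53.5 ± 11.1 CPM per kb, then Itgax at 21.3 ± 0.870, Batf3 at 9.88 ± 0.664 and Clec9a at 7.23 ± 0.507, with no overlap between neighbours. Clec9a, Cd209a, Siglech, Xcr1, Clec4a4 and Zbtb46 followed from 7.23 down to 3.01 CPM per kb, and each overlapped its neighbour, so their order is not resolved. Ccr9 was the lowest at 0.911 ± 0.180 CPM per kb, over an annotated exonic length of 10260 bases. In mutant 1 the level of Xcr1 was 0.0308 and that of Clec9a 2.59 CPM per kb, whereas in mutant 2 they were 3.34 and 1.17 CPM per kb.

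For 3 members the genes with the nearest pattern were found among 11429 genes, by the Euclidean distance of log2 CPM over the 6 libraries after subtracting each gene's control mean. Nearest to Xcr1 was Dnase1l3, a secreted DNase of dendritic cells and macrophages (distance 1.11), at 242 to 413 CPM in controls but 5.12, 176 and 13.8 CPM in mutants 1 to 3. The immunoglobulin lambda genes Iglc1 and Iglv1 came next, at 1.12 and 1.20. Nearest to Clec4a4 were B3gnt8, Pxdc1 and Bin1, at 0.53 to 0.56. Nearest to Siglech were Bst1 (0.95), the immunoglobulin segment Ighv1-9 (1.34) and the receptor gene Tlr1 (1.37). Among the members themselves, the closest pair was Itgax and Clec4a4 at 1.39, followed by Xcr1 and Siglech at 1.53, which belong to different subsets.

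The other genes of these subsets were read from 6 lists chosen from textbook knowledge, with 81 genes in all. Of these, 15 fell and 2 rose by edgeR (adjusted p under 0.05). That fit called 6.90% of all tested genes lower and 5.08% higher, the shares to set beside the count of each list below. The median log2 fold change of the 81 genes was -0.90, against 0.10 for all tested genes. Without control 1, 2 or 3, 6 fell and 0 rose in each fit, where 0.581% to 0.636% of all genes fell and at most 0.0392% rose. Without mutant 2, 44 of the 81 fell and 5 rose, against 15.3% and 13.6% of all genes. Of those named below, Spib, Ly6d, Ccr7, Lta, Ltb and Siglecg were called lower in all 6 fits with 1 library left out, the highest adjusted p being 0.0426, for Ltb. Several list members are also B-cell or T-cell genes. The B-cell list summed to 5450 to 6105 CPM in controls and to 96.6, 63.0 and 40.5 CPM in mutants 1 to 3, and all of its 8 genes fell. The T-cell list summed to 637.1 to 793.0 CPM and to 30.8, 91.7 and 21.5 CPM, with 4 of 8 lower. No gene of either list was at 0 in a mutant, and their part in the changes of the shared genes was not tested.

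In the cDC1 list 1 of 13 genes fell, where 6.90% of all tested genes did, and none rose. The list's median log2 fold change was -1.38. The gene that fell was Ly75, which encodes the uptake receptor DEC-205, from 29.9 ± 4.98 to 4.77 ± 1.23 CPM (log2 -2.63 ± 0.30, adjusted p = 0.00883, edgeR). Like Clec9a and Ccr9 it was low in every mutant, at 5.71, 5.22 and 3.37 CPM. Irf8, the partner factor of Batf3, was at 406 to 439 CPM in controls, against 17.0, 217 and 52.4 CPM in mutants 1 to 3 (adjusted p = 0.178). Cd8a, present on splenic cDC1 and on cytotoxic T cells, was at 104.1 ± 12.3 CPM in controls, against 0.837, 15.6 and 1.24 CPM in mutants (adjusted p = 0.0858). Nfil3, a factor upstream in cDC1 development, was at 3.69 ± 0.515 and 8.17 ± 1.78 CPM, higher in all mutants without passing the test (log2 1.15 ± 0.32, adjusted p = 0.0674).

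In the cDC2 list 2 of 11 genes fell and none rose, and the median log2 fold change was 0.61. Relb, an NF-kB subunit that splenic cDC2 need, fell from 104.2 ± 10.2 to 23.4 ± 5.90 CPM (log2 -2.14 ± 0.25, adjusted p = 0.00941, edgeR). Irf4, a factor of cDC2 that B and plasma cells also use, fell to 7.05 ± 7.93 CPM from a control mean of 109.7 ± 4.75 CPM (log2 -3.89 ± 0.92, adjusted p = 0.0461). Notch2, whose signal maintains the ESAM-high cDC2 of the spleen, was at 184 ± 24.1 and 83.8 ± 37.3 CPM (adjusted p = 0.113). Sirpa, shared by cDC2 and macrophages, was at 34.3, 946 and 143 CPM in mutants 1 to 3 and 276 ± 36.4 CPM in controls. Clec10a and Mgl2, lectin genes of cDC2 and of macrophages, were named after their values were seen. They were at 204 and 173 CPM in mutant 2, against at most 9.63 and 1.93 CPM in any control. In mutant 1 they were at 26.2 and 3.84 CPM, and in mutant 3 at 3.02 and 0.208 CPM. In mutants 1 and 2, then, Clec4a4 and Cd209a were low while Clec10a and Mgl2 were above every control, by far the most in mutant 2.

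In the pDC list 4 of 16 genes fell and 1 rose, with a median log2 fold change of -0.71. Spib, a transcription factor of pDC and B cells, stood at 518 ± 43.3 CPM in controls and fell to 4.11 ± 1.46 CPM (log2 -6.96 ± 0.41, adjusted p = 0.00145, edgeR). Ly6d, a surface marker of B-lineage and pDC precursors, fell from 505 ± 48.0 to 5.05 ± 2.04 CPM (log2 -6.61 ± 0.43, adjusted p = 0.00168). Both are strongly expressed in B cells, whose list fell as given above. The other two that fell, Pacsin1 and Klk1, were named after their values were seen. Pacsin1, a gene of membrane trafficking, was at 35.9 to 43.8 CPM in controls but only 0.590, 2.003 and 4.55 CPM in mutants 1 to 3 (adjusted p = 0.0246). Klk1, a kallikrein gene, had 2 counts each in mutants 1 and 2 and at most 1.94 CPM in any control (adjusted p = 0.0331). Smim5, a small membrane protein gene, rose from 6.39 ± 1.22 to 70.2 ± 44.1 CPM (log2 3.43 ± 0.61, adjusted p = 0.0230). Tcf4, the factor that sets pDC identity and is also made in B cells and stroma, was at 110.2 ± 4.25 and 76.4 ± 12.3 CPM (adjusted p = 0.127).

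Of 14 genes shared by dendritic cells or linked to their maturation, 2 fell and 1 rose. Ccr7, by which mature dendritic cells and lymphocytes enter T-cell zones, and Kmo, an enzyme of tryptophan breakdown, fell by 5.69 ± 0.17 and 5.35 ± 0.66 on the log2 scale (adjusted p = 0.000378 and 0.0104, edgeR). Ccl17, a chemokine of dendritic cells, rose to 3.83 ± 3.59 CPM from a control mean of 0.256 ± 0.0363 CPM (log2 3.88 ± 0.84, adjusted p = 0.0371). The most abundant gene of the list was Cd74, the invariant chain of MHC class II, at 6938 to 8981 CPM in controls, against 120.0, 7433 and 130.9 CPM in mutants 1 to 3. As with Siglech, the level of Cd74 in mutant 2 was within the control range while B-cell genes, another source of it, were low there. Monocyte and macrophage markers were high in mutant 2, summing to 7888 CPM against 1366 to 1880 CPM in controls. The part of each cell type in the Cd74 level was not tested.

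Ligands and growth signals for these receptors fell in 4 of 7 cases. Xcl1, the ligand of Xcr1, fell from 2.86 ± 0.142 to 0.192 ± 0.218 CPM (log2 -3.82 ± 0.91, adjusted p = 0.0467, edgeR), with 0.444 CPM in mutant 2, where Xcr1 itself was near the control level. Lta and Ltb, the lymphotoxin chains that maintain splenic cDC2, fell by 5.70 ± 0.49 and 5.51 ± 0.52 on the log2 scale (adjusted p = 0.00414 and 0.00562), and Dll1, a Notch2 ligand, fell by 1.36 ± 0.26 (adjusted p = 0.0262). Ccl25, the ligand of Ccr9, was at 8.11 ± 0.315 and 7.63 ± 2.71 CPM (log2 -0.09 ± 0.33, adjusted p = 0.870). The growth factor gene Flt3l was at 49.3 to 56.2 CPM in controls but 11.4, 13.3 and 45.5 CPM in mutants 1 to 3, and its receptor gene Flt3, which progenitors also express, at 30.9 to 40.2 and at 23.5, 7.73 and 5.61 CPM. Neither passed (adjusted p = 0.182 and 0.118), and the mutant with the highest Flt3l was the one with the lowest Flt3.

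**Figure D4:**
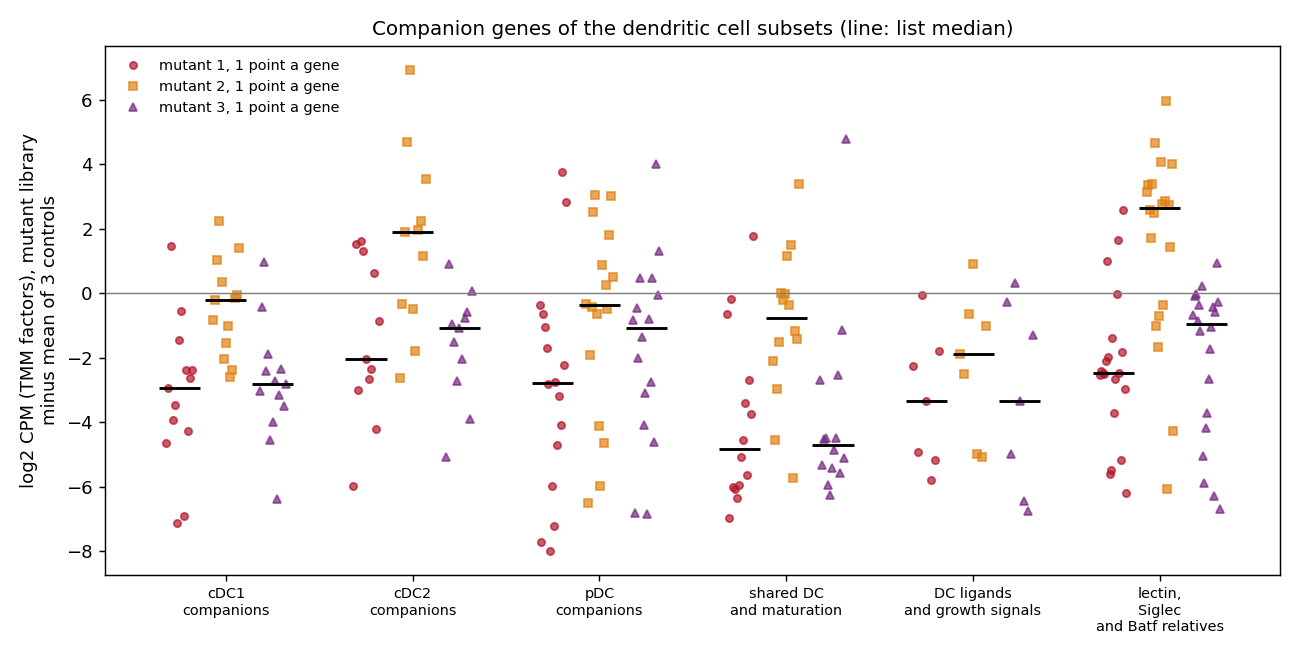
Log2 CPM with TMM scaling factors of each mutant library minus the control mean for the genes of 6 lists around the dendritic cell subsets, 1 point per gene, with the list median as a line. In mutant 2 the medians of the cDC2 list and of the lectin, Siglec and Batf relatives are 1.91 and 2.66, above 0, while both other mutants lie below 0 in every list.

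Relatives of Clec4a4 and Cd209a lay on both sides of the control range in mutant 2, where both of these genes were low. In a list of 20 relatives by family, 2 fell, Siglecg and Cd22, both inhibitory Siglecs of B cells (log2 -5.79 ± 0.40 and -5.35 ± 0.76, adjusted p = 0.00208 and 0.0142, edgeR), and none rose. The eosinophil gene Siglecf was at 0.405 ± 0.0775 and 1.46 ± 0.932 CPM (adjusted p = 0.0814). Other relatives were named after their values were seen. Clec4a1, Clec4a2 and Clec4a3, of the family of Clec4a4, were at 248, 135 and 67.3 CPM in mutant 2, against at most 35.9, 16.1 and 14.3 CPM in any control, whereas Clec4a4 was at 0.780 CPM there. Cd209b, a lectin of marginal zone macrophages, was at 72.8 CPM in mutant 2 and at most 3.49 CPM in any control, and Cd209f and Cd209g were at 5.28 and 1.02 CPM there, against at most 0.353 and 0.227 CPM. Cd209c, Cd209d and Cd209e were below every control in mutant 2, as Cd209a was, at 0.565, 1.76 and 0.376 CPM against at least 1.03, 4.90 and 0.539 CPM. Siglec1, the sialoadhesin of metallophilic macrophages, reached 1197 CPM in mutant 2, while controls held 16.8 to 29.4 CPM. How the counting treated reads shared between such near copies is not given in the sources used here.

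Some of the 10 genes are also expressed by other cells, whose markers were summed per library. Counts of called markers come from the fit that called 6.90% of all tested genes lower and 5.08% higher. In the natural killer list edgeR called 0 of 7 genes (unadjusted p was under 0.05 for 1). Sums were 63.9 to 77.0 CPM in controls but 9.53, 32.8 and 34.1 CPM in mutants 1 to 3. In mutant 3, Prf1 alone gave 31.4 CPM of the sum, against 12.6 to 15.8 CPM in controls. The list's median log2 difference from the control mean was -3.92, -0.84 and -4.48 in mutants 1 to 3. Its most abundant genes in controls were Gzma and Tbx21, at 15.2 ± 4.63 and 14.9 ± 2.09 CPM. In mutants 1 to 3 Gzma was at 3.47, 8.83 and 0.638 CPM, and Tbx21 at 0.329, 2.47 and 0.195 CPM. In the plasma cell list 3 of 7 fell, with sums of 1470 to 1878 and of 185.3, 478.7 and 282.4 CPM. Of that list Mzb1 fell by 4.26 ± 0.67 on the log2 scale (adjusted p = 0.0175, edgeR), while Jchain did not pass (adjusted p = 0.0626). Among B- and T-cell markers, Cd79b, Lck and Tcf7 fell by 5.10, 3.17 and 4.61 on the log2 scale.

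In the monocyte and macrophage list edgeR called 0 of 8 genes (unadjusted p was under 0.05 for 1). Lyz2 was at 4711 CPM and Csf1r at 1577 CPM in mutant 2, against at most 1248 and 324 CPM in any control and 445 and 78.5 CPM in any other mutant. The endothelial list had 1 gene higher and 1 lower of 8, the latter Pecam1 (log2 -1.21 ± 0.16, adjusted p = 0.0122), with Stab2 at 94.6 ± 11.1 and 137 ± 15.9 CPM (adjusted p = 0.0838). The erythroid list had 2 of 8 higher, Tal1 and Epor, whereas Hbb-bs and Hba-a1 did not pass (adjusted p = 0.306 and 0.347). In the interferon response list Rsad2 was the most abundant in controls and did not pass (adjusted p = 0.967). The part of these cells in the levels of Itgax, Zbtb46 and Bst2 was not tested.

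**Figure D5:**
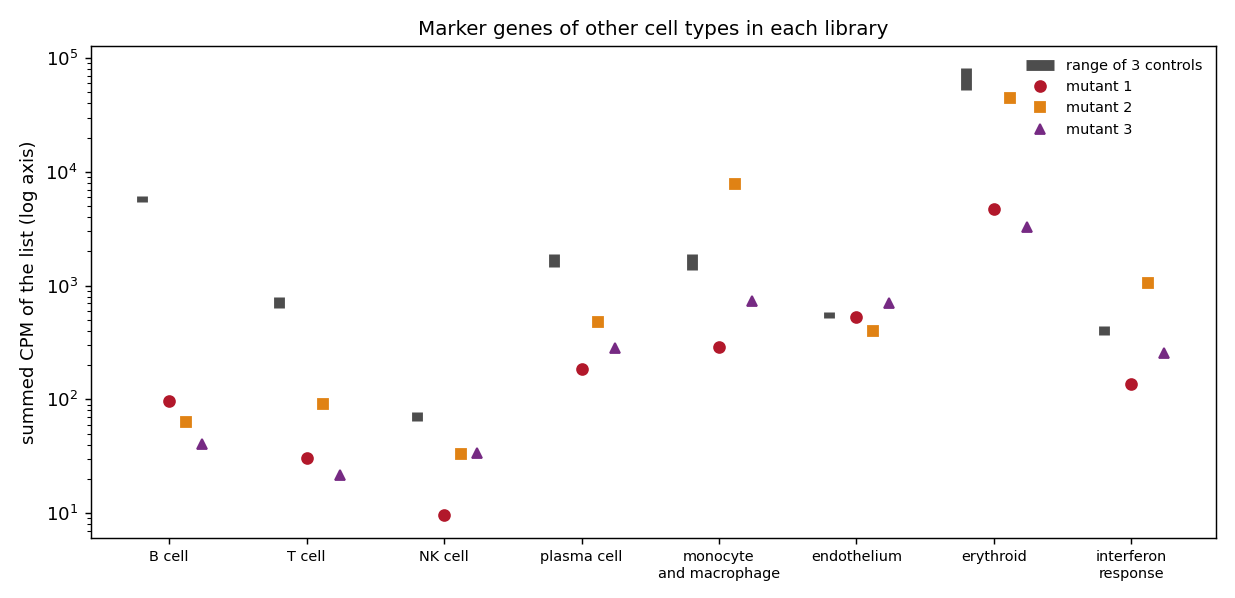
Summed CPM of marker lists of other cell types on a log axis, the control range as a bar and each mutant as a symbol. B-cell sums are 40.5 to 96.6 CPM in the mutants, and mutant 2 is above the control range for the monocyte and macrophage list and for the interferon response list.

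The calls depended on which animals were compared. Without mutant 2, 9 of the 10 members fell by edgeR, all except Bst2, where 15.3% of all tested genes were called lower. Xcr1 then had a log2 fold change of -5.45 (adjusted p = 0.0127), Siglech of -4.39 (adjusted p = 0.0321) and Cd209a of -6.47 (adjusted p = 0.00393). Zbtb46, Itgax and Clec4a4 were at -1.74, -3.80 and -4.36 (adjusted p = 0.0165, 0.0151 and 0.00414). With mutant 3 alone against the 3 controls, which removes the difference in sex, the same 9 genes were called lower, where 26.9% of tested genes were called lower; the lone mutant is assumed to vary like the controls. Clec9a then stood at -3.14 and Ccr9 at -2.67 on the log2 scale. Without control 1, 2 or 3 no member was called, while the log2 fold change stayed between -2.25 and -2.20 for Clec9a and between -3.22 and -2.98 for Ccr9. In those fits 0.636%, 0.581% and 0.627% of genes were called lower. With all 6 libraries and another test, DESeq2 called 4 of the 8 members to which it gave an adjusted p (Clec9a, Clec4a4, Cd209a and Ccr9), where 11.1% of genes were called lower. Limma-voom added Itgax to these (10.2% of genes), and with sample weights it called 8 members lower, all except Siglech and Bst2 (9.40% of genes). With a variance for each group limma-voom called 3, Clec9a, Itgax and Cd209a (4.02% of genes), and neither Ccr9 nor Clec4a4 passed (adjusted p = 0.0740 and 0.0768). Plain limma-voom gave lower estimates than edgeR for Xcr1, Batf3 and Siglech, at -4.02, -1.70 and -3.25, without a call (adjusted p = 0.0907, 0.203 and 0.154).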

How the data were processed

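RNA from 3 mutant and 3 control spleens was sequenced after poly-A selection with a strand-marking kit from 50 ng per sample, per the labels' protocols. The deposited values are raw counts of reads for each Ensembl gene, made by the authors without normalization. The submitters' processing notes name STAR 2.5.3a, limma and the builds mm10 and GRCm38; which step each served is not stated. The sources used here give neither the annotation, nor the strand setting, nor the treatment of shared reads. Of 31771 identifiers 31669 matched a symbol. Positions and exonic lengths are from GENCODE M21 on GRCm38, and promoters from RefSeq on GRCm38.p6.

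The test was edgeR 4.0.16 in R 4.3.3 (TMM factors, expression filter by group, robust quasi-likelihood fit, no covariate) over the whole table, with Benjamini-Hochberg adjustment at 0.05. It kept 19573 genes. The SE is the log2 fold change divided by the root of F. CPM use library totals. Log2 CPM use TMM factors and a prior count of 2. The procedure was tested on simulated data. Replicate numbers follow accession order. The p-values measure only the spread between these samples, which may be technical where they do not come from separate animals.

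The members and lists were chosen with earlier results of these data known. Beside the 10 members, the text names the 3 genes with the smallest p and the most abundant gene of each of the 6 lists around dendritic cells, 4 receptor or ligand partners, the 2 most abundant genes of each list of other cells in controls, and the 3 nearest genes of Xcr1, Clec4a4 and Siglech among named genes whose log2 CPM averaged 2 or more. Genes outside this rule, such as Gata1, Cdh5, Clec1b, Slc6a20a, Oas1a, Tcf4, Tal1 and Epor, were named after their values were seen. Of the genes under the rule, 2 are not reported here. DESeq2 1.42.0 and limma 3.58.1 served as alternatives.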

Additional observations from a re-analysis of the deposited data

How the results depend on the processing

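The main test called 2 members lower and 0 higher, 15 genes of the 6 lists around dendritic cells lower and 2 higher, and 16 markers of other cells lower and 4 higher. It called 6.90% of all tested genes lower and 5.08% higher. Members called lower numbered 4 by DESeq2 (of 8 given an adjusted p), 5 by limma-voom, 8 by limma-voom with sample weights, and 9 with both mutants of high Xist left out, while 11.1%, 10.2%, 9.40% and 26.9% of all genes were called lower. Leaving out 1 library gave 0 to 9, the lowest without each control and the highest without mutant 2. In the lists around dendritic cells, the genes lower numbered 23 by DESeq2, 35 with sample weights, 61 without the mutants of high Xist and 6 to 44 with 1 library left out. The genes higher numbered 6, by DESeq2 and without the mutants of high Xist, 1 with at least 1 CPM required in 3 libraries, and 0 to 5 with 1 library left out. Among markers of other cells, 25 were lower with sample weights, 38 without the mutants of high Xist and 9 to 32 with 1 library left out. Those higher numbered 2 with upper-quartile factors, with a variance for each group and with no expression filter, 8 by DESeq2, 17 without the mutants of high Xist, and 0 to 8 with 1 library left out, while DESeq2 called 10.3% of all genes higher and the fit without the mutants of high Xist 25.7%. The cause of these shifts was not tested.

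No member changed direction under any of the 16 alternatives that gave it a value, which DESeq2 did not for Batf3 and Siglech. Sirpa turned to -0.71 by limma-voom, -0.95 with sample weights, -0.71 with a variance for each group and -0.98 without the mutants of high Xist, and ranged from -1.67 to 1.07 with 1 library left out. Lyz2 turned to -0.90, -1.17, -0.91 and -1.24 and ranged from -2.02 to 1.43, and Csf1r to -0.67, -1.32, -0.68 and -1.85 with a range of -2.25 to 1.69. Ccl25 turned to 0.063 with sample weights and 0.29 without the mutants of high Xist, with a range of -0.32 to 0.13, and Rsad2 ranged from -3.92 to 0.46. Scaling CPM with TMM factors moved each member's group means by less than 1 SD, as did a prior count of 0.5 for the mean ratios. No paired analysis was possible because the labels give no replicate number shared by mutants and controls. Levels under 3 counts cannot be told from 0 at this depth.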
